A study of Mus musculus with 30 samples.

Results

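The mitochondrial genome of the mouse carries 37 genes, and all 37 had a row in the deposited table of 65534 genes. They were chosen by a mouse symbol that starts with mt- and comprised 13 mRNAs, 2 rRNAs (mt-Rnr1 and mt-Rnr2) and 22 tRNAs. Rows for 14 of them held values above 0, and these 14 also passed the filter used for testing, a value above 1 TPM (the unit of the table, corrected for transcript length and scaled to a common total per library) in at least 5 libraries. The other 23 rows, the 22 tRNAs and the mRNA mt-Nd6, were listed at 0 in all 30 libraries.

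RNA with poly(A) tails was sequenced from germ cells enriched from the testes of male mice that carried wild-type (Prdm9+/+), heterozygous (Prdm9+/-) or homozygous mutant (Prdm9-/-) alleles of Prdm9. PRDM9 is the histone methyltransferase that marks the sites of meiotic recombination, and spermatocytes without it stop before they complete meiotic prophase. Testes were taken at 8, 12 and 16 days postpartum (dpp), ages of the first wave of spermatogenesis at which spermatogonia, then early spermatocytes, then pachytene spermatocytes accumulate. All animals shared the strain background C57BL/6J with less than 10% 129S1/SvImJ. The mutant allele itself is not given in the sources used here. At 8 dpp there were 3 wild-type, 2 heterozygous and 5 mutant libraries. At 12 dpp there were 1, 4 and 5, and at 16 dpp 2, 3 and 5. Wild-type and heterozygous libraries together form the non-mutant group of 5 at each age. The header of the table assigns the libraries to 14 litters, and each mutant library has a non-mutant mate from its own litter. The sources do not state that each library came from a separate animal, so p-values measure the spread between these libraries.

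Mitochondrial DNA is a small circle that is transcribed from both strands by the polymerase POLRMT with the factors TFAM and TFB2M. The long transcripts are cut at the tRNAs that lie between most of the mRNAs and rRNAs, and the mRNAs and rRNAs receive short poly(A) tails. In human cells the mRNA of ND6, the subunit encoded on the other strand from the remaining mRNAs, is known to lack such a tail. The 13 proteins are core subunits of the respiratory complexes: 7 of complex I (mt-Nd1 to mt-Nd6 and mt-Nd4l), 1 of complex III (mt-Cytb), 3 of complex IV (mt-Co1 to mt-Co3) and 2 of the ATP synthase (mt-Atp6 and mt-Atp8). All other subunits of these complexes, and all of complex II, come from nuclear genes.

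The table stores a single value per gene and library, so the way neighbouring and duplicated sequences overlap bears on what each row can show. The sequences below are from GENCODE M21 (GRCm38), and they are shown because mitochondrial mRNAs share bases in 4 pairs. Capitals mark the shared bases of 3 of them. The fourth pair, mt-Atp6 and mt-Co3 (chrM:8607-9390), shares 1 base and is not printed. mt-Atp8 (chrM:7766-7969, + strand, 204 bases) shares its last 43 bases with the start of mt-Atp6 (chrM:7927-8607). mt-Nd4l (chrM:9877-10173, + strand, 297 bases) shares its last 7 bases with the start of mt-Nd4 (chrM:10167-11544). The end of mt-Nd6 (chrM:13552-14070, - strand) lies over the end of mt-Nd5 on the opposite strand for 14 bases, and its last 30 bases (chrM:13552-13581) are printed.
mt-Atp8: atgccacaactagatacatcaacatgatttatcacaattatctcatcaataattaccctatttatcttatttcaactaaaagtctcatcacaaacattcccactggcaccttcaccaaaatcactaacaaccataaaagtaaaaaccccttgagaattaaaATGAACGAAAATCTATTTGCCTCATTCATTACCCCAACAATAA
mt-Nd4l: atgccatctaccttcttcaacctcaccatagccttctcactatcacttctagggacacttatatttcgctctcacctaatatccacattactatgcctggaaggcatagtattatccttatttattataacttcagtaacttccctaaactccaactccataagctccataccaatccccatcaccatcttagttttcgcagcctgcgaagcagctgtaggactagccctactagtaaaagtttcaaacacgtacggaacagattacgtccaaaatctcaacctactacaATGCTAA
mt-Nd6: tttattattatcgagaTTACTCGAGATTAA

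The mRNA ends differ in a way that is particular to mitochondrial transcripts and shows why the poly(A) tail matters there. In 3 of the 13 annotated mRNAs, mt-Co3, mt-Cytb and mt-Nd4, the annotated sequence stops after the first base of the last codon, and it is known that the added A residues complete the stop codon. The last 15 bases of these 3 mRNAs and of mt-Co1, which encodes a whole stop codon, are given with the last codon or its part in capitals (mt-Co3 chrM:9376-9390, mt-Cytb chrM:15274-15288, mt-Nd4 chrM:11530-11544, mt-Co1 chrM:6858-6872, all + strand).
mt-Co3: attgatgaggatctT
mt-Cytb: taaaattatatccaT
mt-Nd4: caggcctgacaataT
mt-Co1: gtaaaagtaaaaTAA

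The tRNA rows were 59 to 75 bases long, and 14 of them lie on the + strand and 8 on the - strand. As an example of a gene listed at 0, the tRNA for lysine, mt-Tk (chrM:7700-7764, 65 bases), lies between mt-Co2 and mt-Atp8, both among the 13 rows with the highest mean TPM.
mt-Tk: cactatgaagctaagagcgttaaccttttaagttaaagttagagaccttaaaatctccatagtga
mt-Nd6 is 519 bases long and is the only mRNA on the - strand. The part of gene length, of strand or of the missing tail in these zeros was not tested, so the rows are described only as listed at 0.

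Copies of mitochondrial sequence in nuclear chromosomes can take reads from the members. A search of all annotated transcripts found 21 nuclear genes that matched a member at 85% identity or more over at least 100 bases, and 11 of them had a row here. Of those 11, 6 were listed at 0 in every library. The 4 with the highest mean values were Gm10222 (1618 TPM), Gm13341 (1.64 TPM), Gm13340 (0.41 TPM) and Gm13339 (0.0117 TPM). Gm10222 (chr1:24612407-24612700, - strand) is identical to mt-Nd4l over all 294 compared bases, and its value equalled that of mt-Nd4l in 30 of 30 libraries. The mt-Nd4l row is therefore uncertain in level, because its reads cannot be told from those of Gm10222. Another 10 copies were not analysed here. They include the near-identical neighbours of Gm10222 on chromosome 1, Gm28439 (identical to mt-Nd4 over 876 bases), Gm28437 (mt-Co3), Gm10925 (mt-Atp6) and Gm28661 (mt-Co2).

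A further 4 rows without a gene symbol, from the NONCODE catalogue, followed a member in a nearly constant ratio. NONMMUG000267 was 0.68 of mt-Atp6 with a coefficient of variation of 2.46% across the 30 libraries. NONMMUG000271, NONMMUG000270 and NONMMUG022190 were 0.762, 0.415 and 0.013 of mt-Co2, with coefficients of variation of 4.9%, 5.37% and 3.33%. The next row in that order among the 10427 rows screened varied by 10.9%, and the limit of 10% was set after these values were seen. NONMMUG000269, with a mean of 2931 TPM and 0.626 of mt-Atp8, varied by 13.2% and was not counted. Nuclear genes that varied less than it were not counted either. NONMMUG000267 had a mean of 8627 TPM, beside 12657 TPM for mt-Atp6. NONMMUG000271, NONMMUG000270 and NONMMUG022190 had means of 10664, 5801 and 183 TPM, beside 13920 TPM for mt-Co2. The table gives no position for the 4 rows, and whether they hold reads of the members was not tested. The levels of mt-Co2 and mt-Atp6 are therefore uncertain too. They are left out of the share unless stated.

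Whole-series facts that touch these rows were the following. TPM values are scaled to 1 total in every library and keep no depth, so the depth of each library is unknown, and 3.23% to 3.95% of each total lay outside the rows held. The Prdm9 row, the check of the genotype labels, was 16.0 to 34.4 TPM in non-mutant and 6.34 to 12.8 TPM in mutant libraries at 12 and 16 dpp, except in litter 13 at 12 dpp, where the library labelled heterozygous had 9.16 TPM and its mate labelled mutant had 19.2 TPM. At 8 dpp the row was not lower in mutants, with 1.82 to 6.1 TPM in non-mutants and 4.77 to 8.98 TPM in mutants. It therefore does not check the labels at that age. Germ cell markers (Ddx4, Dazl, Mael, Dnd1, Tex101, Taf7l) summed to 388 to 2201 TPM, and no marker of this list was at 0. Sertoli cell markers summed to 1660 to 2979 TPM, so the libraries labelled as germ cells also held RNA of the somatic cells of the tubule.

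The members stood among the most abundant rows of these libraries. By mean TPM mt-Co3 ranked 1 of all rows, mt-Co1 2, mt-Co2 3, mt-Atp6 4 and mt-Cytb 7. mt-Nd1, mt-Atp8, mt-Nd4, mt-Nd2, mt-Nd3, mt-Nd5 and mt-Nd4l followed at ranks 11 to 41. The rRNA rows ranked far lower, mt-Rnr2 at 801 and mt-Rnr1 at 821. This order compares levels per length, since TPM is corrected for transcript length. It takes each row alone, and the places of mt-Co2 and mt-Atp6 are uncertain because of the NONCODE rows described above.

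Summed over all rows, mitochondrial RNA was higher at 16 dpp than at 8 dpp in both genotype classes. In non-mutant libraries the members made up 6.8% ± 0.282 (SD, n = 5) of the library's summed TPM at 8 dpp, 9.03% ± 1.47 at 12 dpp and 11.6% ± 2.51 at 16 dpp. In mutant libraries the share was 7.03% ± 1.27, 8.79% ± 1.15 and 10.5% ± 0.457 (SD, n = 5 each). All 5 libraries at 16 dpp lay above all 5 at 8 dpp in each class, while the libraries at 12 dpp overlapped those at 16 dpp in both classes. In mutants the 12 dpp libraries also overlapped those at 8 dpp, since the highest 8 dpp mutant, 9.1%, lay above 4 of the 5 at 12 dpp. In non-mutants all 12 dpp libraries lay above those at 8 dpp. The summed share is a description and was given no test. No litter was sampled at different ages, and the numbers in the sample labels also ran in separate blocks by age. Age can therefore not be told apart from litter or number block in any age comparison here. Both genotype classes came from the same litters, so their age differences are not independent of each other.

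**Figure D1:**
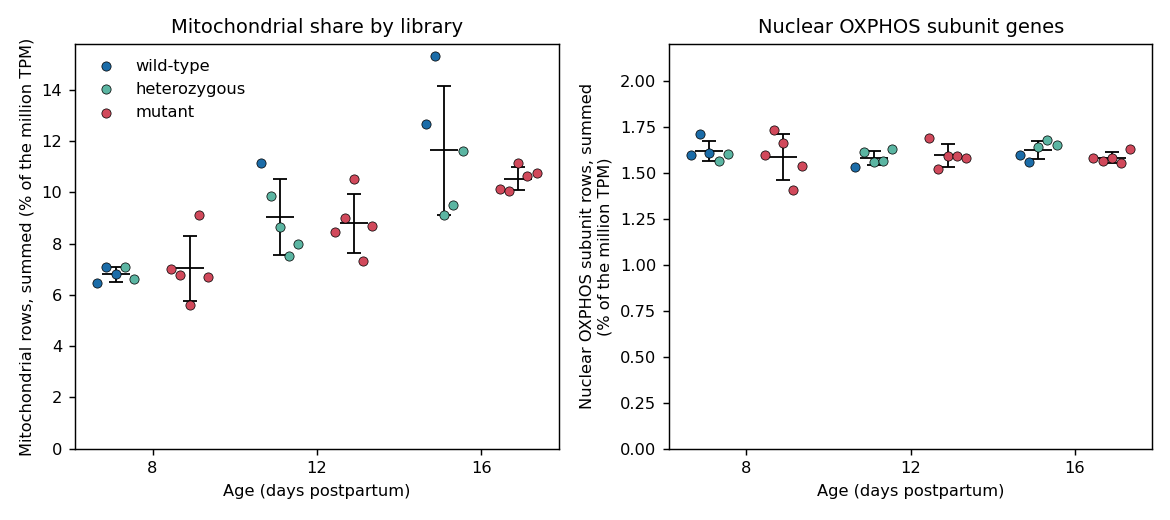
Left, the summed mitochondrial rows as percent of the library's summed TPM for each library (points, coloured by Prdm9 genotype) against age in days postpartum; right, the same for 79 nuclear genes of the respiratory complexes. In each pair the non-mutant group is on the left and the mutant group on the right, horizontal bars are group means and error bars 1 SD (n = 5). The mitochondrial share goes from 6.8% and 7.03% at 8 dpp to 11.6% and 10.5% at 16 dpp, while the nuclear sum lies between 1.58% and 1.63% in all group means.

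The individual libraries show how wide the groups were. At 8 dpp the non-mutant shares were 6.45%, 7.07% and 6.8% in wild type and 7.08% and 6.6% in heterozygotes, and the mutant shares were 7%, 6.78%, 5.61%, 9.1% and 6.69%. Mutant replicate 4, from litter 10, lay highest at that age. At 12 dpp the wild-type library had 11.1%, the heterozygotes 9.87%, 8.66%, 7.5% and 7.99%, and the mutants 8.45%, 8.99%, 10.5%, 7.32% and 8.68%. At 16 dpp the wild-type libraries had 12.6% and 15.3%, the heterozygotes 9.11%, 9.51% and 11.6%, and the mutants 10.1%, 10.0%, 11.1%, 10.6% and 10.7%. The 16 dpp mutants were the tightest of the groups at that age and at 12 dpp, and all 5 lay between the lowest heterozygous and the lower wild-type library.

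The 12 mRNA rows with values took nearly all of this share, and each of them was higher at 16 dpp than at 8 dpp. In the linear model of log2(TPM + 1) fitted with limma across 20021 rows, 12 of 14 members were called higher at 16 dpp in non-mutants and 11 of 14 in mutants, at a Benjamini-Hochberg adjusted p under 0.05. Of all rows tested, 26.9% were called higher over this interval in non-mutants and 26.8% in mutants. The median log2 fold change of the 12 mRNA rows was 0.83 in non-mutants, beside 0.02 over all rows, and 0.68 in mutants, beside 0.06.

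mt-Co1, the catalytic subunit of cytochrome c oxidase, had 10266, 10420, 11175, 13152 and 10103 TPM in the non-mutant libraries at 8 dpp and 22872, 27422, 15513, 16820 and 20578 TPM at 16 dpp, each list with wild-type libraries first. The groups did not overlap, and the log2 fold change was 0.88 ± 0.15 (SE, limma adjusted p = 1.1e-05). In mutants mt-Co1 went from 10652, 10874, 8508, 15980 and 10336 TPM to 17454, 18054, 21685, 18922 and 19777 TPM, a log2 fold change of 0.79 ± 0.15 (adjusted p = 5.4e-05), again without overlap. The highest 8 dpp value in mutants, 15980 TPM, came from replicate 4, whose heterozygous mate also had the highest mt-Co1 of the non-mutants at that age.

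The other members of complex IV rose as well. mt-Co2, which takes up electrons from cytochrome c, had group means of 10254 ± 822 TPM at 8 dpp and 18431 ± 4170 TPM at 16 dpp in non-mutants (SD, n = 5), a log2 fold change of 0.82 ± 0.14 (limma adjusted p = 1.2e-05). mt-Co3, a structural subunit, rose less: from 13061, 13646, 13259, 12001 and 13264 TPM to 21288, 23736, 16564, 16417 and 19874 TPM in non-mutants, a log2 fold change of 0.57 ± 0.11 (limma adjusted p = 6.1e-05). In mutants the mt-Co3 log2 fold change was 0.42 ± 0.11 (adjusted p = 0.002).

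Among the complex I subunits the change ran from the largest to the smallest of all the mRNA rows. mt-Nd4, part of the proton-pumping membrane arm, had 2634, 2934, 2979, 3221 and 2839 TPM in the non-mutants at 8 dpp and 6450, 7947, 4087, 4888 and 5402 TPM at 16 dpp, with a log2 fold change of 0.94 ± 0.16 (limma adjusted p = 8.6e-06). mt-Nd3, a small subunit at the junction of the 2 arms, had 2438, 3208, 2487, 2098 and 2624 TPM at 8 dpp and 3994, 4637, 2928, 2929 and 3170 TPM at 16 dpp. Its groups overlapped, and its log2 fold change was 0.45 ± 0.13 (adjusted p = 0.0065). In mutants mt-Nd3 had a log2 fold change of 0.26 ± 0.13 (adjusted p = 0.11) and was the mRNA that was not called there. mt-Nd1, mt-Nd2, mt-Nd5 and mt-Nd4l were called higher in both classes, with log2 fold changes of 0.62, 0.84, 0.80 and 0.90 in non-mutants and 0.45, 0.69, 0.65 and 0.83 in mutants.

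mt-Cytb, the complex III subunit that carries the quinone sites, had 4416, 4698, 4952, 5454 and 4440 TPM in non-mutants at 8 dpp and 9646, 11662, 7025, 7544 and 8875 TPM at 16 dpp. The log2 fold change was 0.88 ± 0.14 in non-mutants (limma adjusted p = 5.8e-06) and 0.74 ± 0.14 in mutants (adjusted p = 7.7e-05). Of the ATP synthase subunits, mt-Atp6, which forms the proton channel, rose by a log2 fold change of 0.68 ± 0.11 in non-mutants and 0.48 ± 0.11 in mutants. mt-Atp8, whose sequence above runs into mt-Atp6, rose by 0.93 ± 0.17 and 0.69 ± 0.17.

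**Figure D2:**
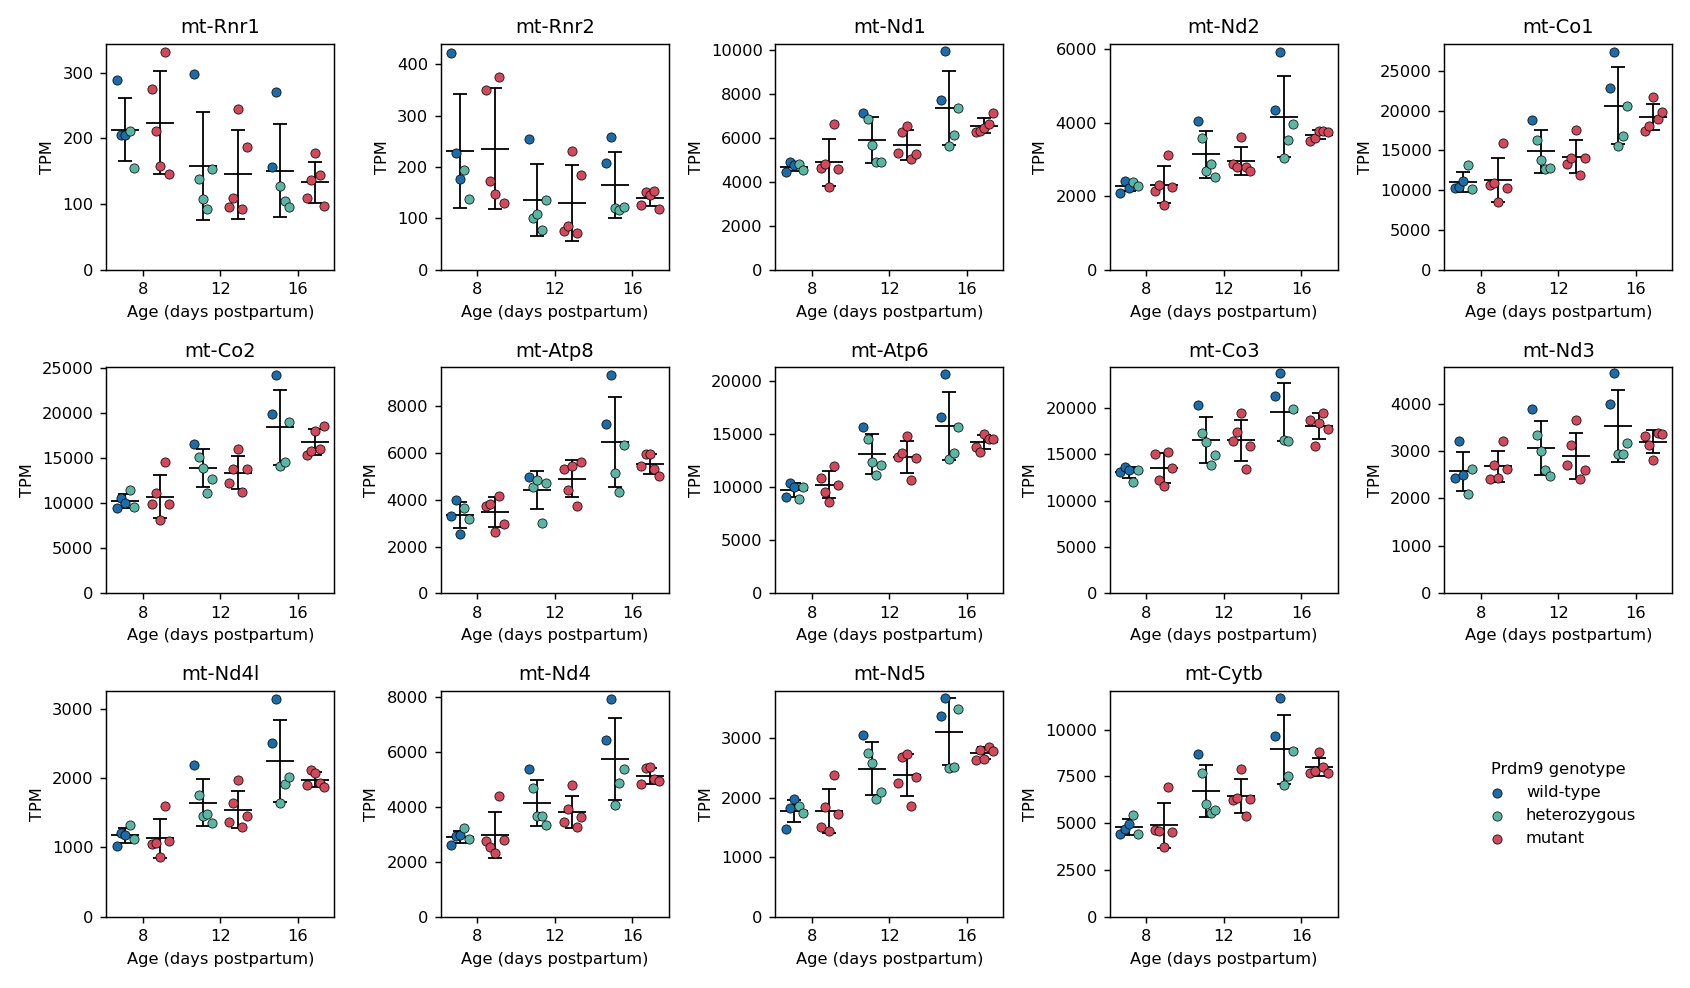
TPM (y axis) of each of the 14 members with values (1 panel each) against age in days postpartum, 1 point per library coloured by Prdm9 genotype, with group means and 1 SD (n = 5, non-mutants left and mutants right in each pair). The 12 mRNA panels climb with age and the wild-type libraries lie at or near the top at 12 and 16 dpp, while the 2 rRNA panels have their highest group means at 8 dpp.

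Counted by overlap alone, 11 of 12 mRNA rows had every non-mutant library at 16 dpp above every one at 8 dpp (18.5% of all rows did so), and 10 of 12 did in mutants (17.6% of all rows). mt-Nd3 overlapped in both classes, and mt-Nd1 in mutants. 
The rise was spread over both intervals, and each interval alone was less secure than the whole. From 8 to 12 dpp, 9 of 14 members were called higher in non-mutants (20.3% of all rows were) and 7 of 14 in mutants (17.5% of all rows). The median log2 fold changes of the mRNA rows were 0.43 and 0.36, beside 0.09 and 0.06 over all rows. When libraries were scaled by median ratios in place of the TPM total, the mRNA medians were 0.32 and 0.29 and no member was called in either class. The non-mutant count was 5 without wild-type 12 dpp replicate 1. The mutant count was 1 without mutant 8 dpp replicate 3, 2 without mutant 12 dpp replicate 3, 4 without mutant 8 dpp replicate 2 or mutant 12 dpp replicate 1, and 11 without mutant 8 dpp replicate 4.

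From 12 to 16 dpp, 7 of 14 members were called higher in non-mutants (8.88% of all rows were): mt-Co1, mt-Co2, mt-Cytb, mt-Atp8, mt-Nd2, mt-Nd4 and mt-Nd4l, with limma adjusted p from 0.025 to 0.048. That count was 0 without wild-type 16 dpp replicate 1 or 2, heterozygous 16 dpp replicate 3 or heterozygous 12 dpp replicate 3, and 1 without heterozygous 12 dpp replicate 2 or 4 and without litter 13. In mutants 1 of 14 members, mt-Co1 with a log2 fold change of 0.44 ± 0.15 (adjusted p = 0.047), was called in that interval, beside 6.21% of all rows, and this call was lost in 18 of the 30 fits that left out 1 library. The direction of all 12 mRNA estimates was upward in each interval and class.

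**Figure D3:**
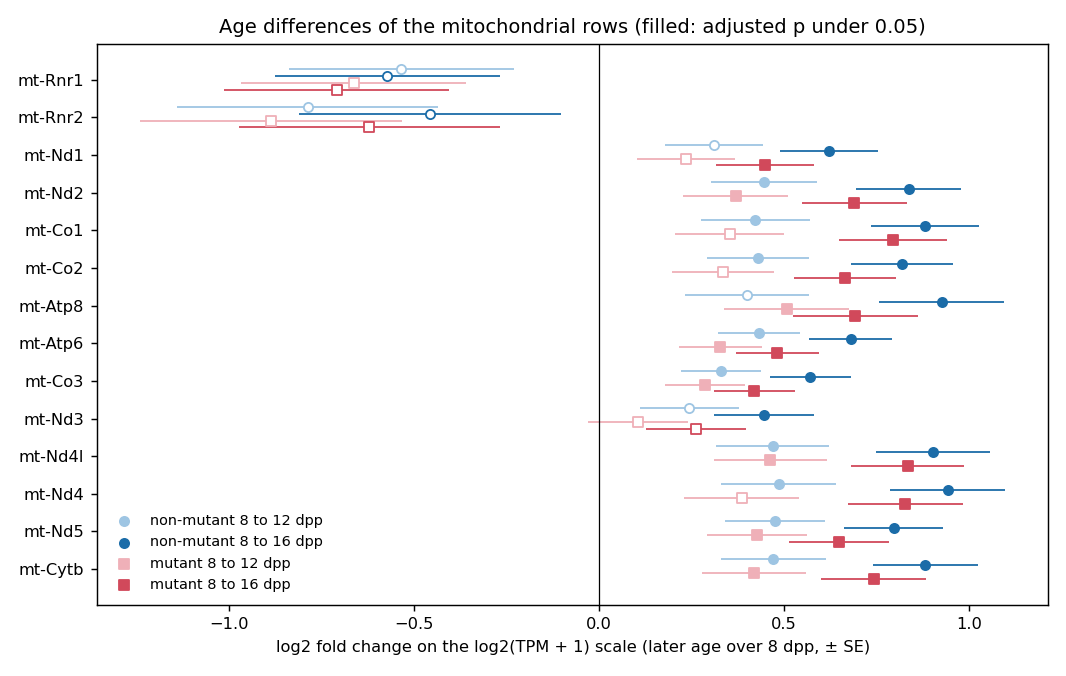
Fitted log2 fold changes on the log2(TPM + 1) scale (x axis, with SE) of the 14 members for 12 dpp and 16 dpp over 8 dpp in non-mutant (circles) and mutant (squares) libraries; filled symbols have a limma adjusted p under 0.05. The mRNA rows lie to the right of 0, from 0.26 to 0.94 at 16 dpp, and the 2 rRNA rows to the left with wide errors.

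The rRNA rows did not follow the mRNA rows. mt-Rnr1, the small-subunit rRNA, had 288, 205, 204, 212 and 155 TPM in the non-mutant libraries at 8 dpp, 298, 137, 107, 92.0 and 153 TPM at 12 dpp and 156, 270, 128, 104 and 96.0 TPM at 16 dpp. mt-Rnr2, the large-subunit rRNA, had 421, 226, 177, 195 and 137 TPM, then 254, 101, 108, 76.7 and 136 TPM, then 209, 258, 120, 117 and 122 TPM. At every age the ranges overlapped those at the other ages, and the highest non-mutant library was a wild-type one.

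The rRNA log2 fold changes from 8 to 16 dpp were -0.57 ± 0.30 for mt-Rnr1 and -0.46 ± 0.35 for mt-Rnr2 in non-mutants, with limma adjusted p of 0.12 and 0.29. In mutants they were -0.71 ± 0.30 and -0.62 ± 0.35, with adjusted p of 0.057 and 0.15. As percent of the summed mRNA rows, the rRNA rows were 0.663% ± 0.259 (SD, n = 5) in non-mutants at 8 dpp, 0.316% ± 0.116 at 12 dpp and 0.266% ± 0.0597 at 16 dpp. The mutant values were 0.643% ± 0.195, 0.306% ± 0.125 and 0.259% ± 0.0398. This ratio did not overlap between 8 and 16 dpp in either class, with lowest values of 0.445% and 0.415% at 8 dpp and highest values of 0.346% and 0.291% at 16 dpp.

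In some litters both mates had high rRNA values, and in others they differed. In litter 3 at 8 dpp the mates had 288 and 275 TPM of mt-Rnr1, in litter 11 at 12 dpp 298 and 245 TPM, and in litter 5 at 16 dpp 270 and 178 TPM, the last 2 pairs being the highest of each class at their age for mt-Rnr1. The highest mt-Rnr1 value of all, 331 TPM in mutant 8 dpp replicate 4, came from litter 10, where the mate had 212 TPM. For mt-Rnr2 the litter 5 mutant, with 146 TPM, lay below mutant 16 dpp replicates 2 and 4, with 151 and 154 TPM. Summed TPM of RNAs that lack a tail or stay in the nucleus (Rn7sk, Rmrp, Rpph1, Malat1, Neat1, Terc) was highest in litters 3 and 11 as well, at 97.6 and 145 TPM and at 132 and 115 TPM, where all libraries spanned 27.4 to 145 TPM and mutant 8 dpp replicate 4 had 42.8 TPM. Over the 30 libraries the Pearson correlation of that sum with the rRNA sum was 0.43, a description only. The part of RNA selection in the rRNA values was not tested.

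Each mRNA row was also taken as a share of the summed mRNA rows. Of these 12 shares, 1 was higher and 1 lower at 16 dpp than at 12 dpp without overlap in non-mutants. In mutants 2 were higher and 1 lower in that way, and the other shares overlapped. Of all rows, by TPM and not by such shares, 6.18% were higher and 6.55% lower in that way in non-mutants. In mutants these were 6.69% and 5.77%. mt-Co1 made up 16.3% ± 1.48 of the summed mRNA rows at 8 dpp, 16.5% ± 0.448 at 12 dpp and 17.7% ± 0.41 at 16 dpp in non-mutants (SD, n = 5), and 16.0% ± 1.01, 16.2% ± 0.442 and 18.2% ± 0.827 in mutants. All libraries at 16 dpp lay above all at 12 dpp in both classes, but the 8 dpp libraries overlapped those at 16 dpp through the mates of litter 10. Heterozygous replicate 1 at 8 dpp had 18.7%, above every non-mutant library at 16 dpp (17.1% to 18.1%), and mutant replicate 4 had 17.7%, above the lowest mutant at 16 dpp (17.3%). The mean mt-Co3 share was 19.3%, 18.4% and 17.03% in non-mutants at 8, 12 and 16 dpp. The mean mt-Atp6 share was 14.4%, 14.7% and 13.6%, and its 16 dpp libraries (13.2% to 13.9%) lay below all 12 dpp libraries (14.1% to 15.2%) but not below the lowest at 8 dpp (12.7%, again from litter 10). The mean mt-Nd3 share was 3.81%, 3.39% and 3.05%, and that of mt-Nd4 was 4.32%, 4.59% and 4.93%. Between 8 and 16 dpp the non-mutant libraries overlapped for each of these 5 shares. Of all 12 shares, 1 in each class did not overlap between 8 and 16 dpp. In non-mutants this was mt-Nd1, with 6.84% to 7.04% at 8 dpp and 6.14% to 6.54% at 16 dpp. In mutants it was mt-Nd3, with 3.48% to 4.37% at 8 dpp and 2.54% to 3.28% at 16 dpp. By TPM, 16.5% of all rows in non-mutants and 13.4% in mutants were lower at 16 dpp than at 8 dpp without overlap. The 12 shares add to a fixed total, so they depend on each other, and they were given no test.

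Ratios between members do not depend on the library's total. mt-Nd3 over mt-Nd4 was 0.886 ± 0.161 at 8 dpp, 0.74 ± 0.0428 at 12 dpp and 0.621 ± 0.0552 at 16 dpp in non-mutants (SD, n = 5), and 0.929 ± 0.138, 0.758 ± 0.0343 and 0.626 ± 0.0763 in mutants. In mutants the 16 dpp libraries (0.514 to 0.683) lay below all at 12 dpp (0.712 to 0.798) and 8 dpp (0.728 to 1.06). In non-mutants the 16 dpp libraries (0.583 to 0.717) overlapped those at 8 dpp (0.652 to 1.09). They overlapped those at 12 dpp (0.71 to 0.813) only through heterozygous 16 dpp replicate 1 (0.717). mt-Co1 over mt-Co3 went from 0.85 ± 0.141 to 1.05 ± 0.0795 in non-mutants and from 0.829 ± 0.14 to 1.07 ± 0.107 in mutants between 8 and 16 dpp, with overlap. The mates of litter 10 stood apart at 8 dpp in both ratios: their mt-Co1 over mt-Co3 was 1.1 and 1.05, where the other 8 dpp libraries had 0.711 to 0.89.

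**Figure D4:**
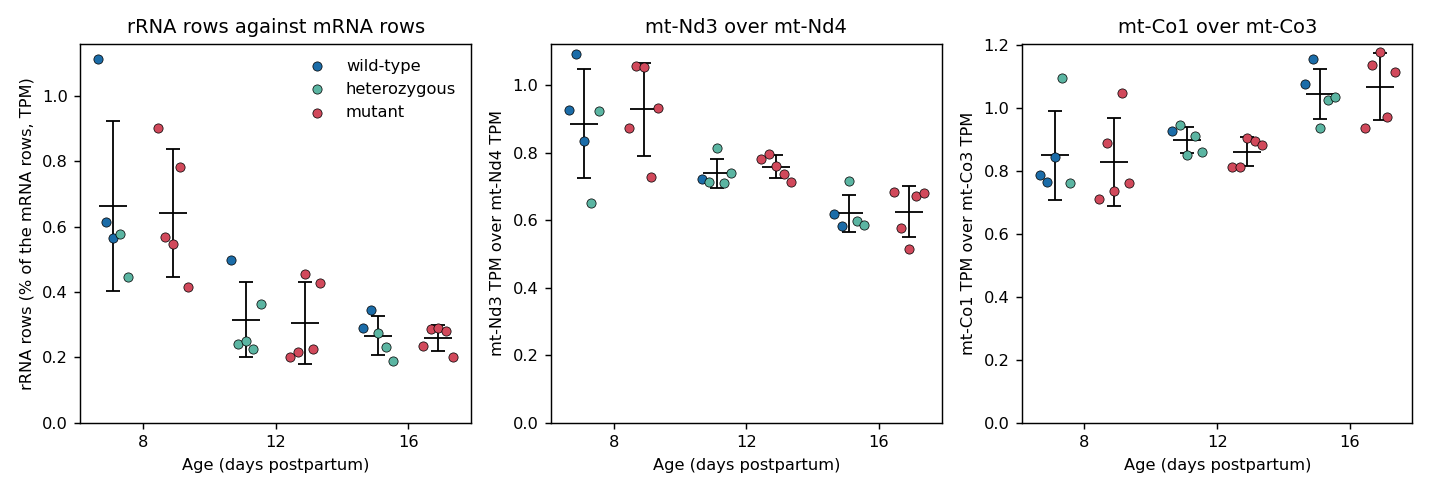
Ratios of mitochondrial rows for each library (points, coloured by Prdm9 genotype) against age in days postpartum: the 2 rRNA rows as percent of the mRNA rows (left), mt-Nd3 over mt-Nd4 (middle) and mt-Co1 over mt-Co3 (right), with group means and 1 SD (n = 5, non-mutants left and mutants right in each pair). The means of the first 2 ratios are lower at 16 dpp than at 8 dpp, from 0.663% to 0.266% and from 0.886 to 0.621 in non-mutants, and the third is higher.

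Some members kept nearly fixed proportions to each other over all 30 libraries. mt-Nd4l over mt-Nd4, the pair that shares 7 bases in a common transcript, was 0.393 with a coefficient of variation of 3.6%. mt-Co1 over mt-Cytb (2.29) varied by 4.08% and mt-Atp6 over mt-Co3 (0.779) by 4.81%. mt-Atp8 over mt-Atp6, which share 43 bases, was looser at 14.3%. Across the libraries, the 66 pairs of mRNA rows had Pearson correlations of log2(TPM + 1) from 0.73 to 0.99 with a median of 0.94, and from 0.57 to 0.98 after group means were removed. The 24 pairs of an mRNA and an rRNA had correlations from -0.18 to 0.16 over all libraries and from 0.40 to 0.73 after group means were removed. All of these points share their library and its TPM total, and no test was made.

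Prdm9 genotype gave no called difference in any member. At 8 dpp, 0 of 14 members were called between mutants and non-mutants in limma (0.0% of all rows were). At an unadjusted p under 0.05 there were 0 members, beside 2.08% of all rows, and the mRNA log2 fold changes ran from -0.08 to 0.07. At 12 dpp, 0 of 14 were called (0.0% of all rows), again with 0 at an unadjusted p under 0.05 (1.12% of all rows). The mRNA values ran from -0.11 to 0.16. At 16 dpp, 0 of 14 were called (3.26% of all rows), with 0 at an unadjusted p under 0.05 (12.4% of all rows). The 12 mRNA values ran from -0.18 to -0.08 with standard errors of 0.11 to 0.17. The smallest adjusted p among the mRNA rows at 16 dpp was 0.69. No difference was detectable with this spread, which does not show that the classes were alike.

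The test of whether the age steps differed between the classes also gave 0 calls among the members. For 8 to 12 dpp the mRNA differences, mutant minus non-mutant, ran from -0.14 to 0.11 (0.0% of all rows were called). For 12 to 16 dpp they ran from -0.34 to -0.01 (1.35% of all rows were called). At an unadjusted p under 0.05 there were 0 members in either test, beside 1.83% and 7.3% of all rows. Within litters, the mutant had the higher mitochondrial share in 3 of 5 pairs at 8 dpp, 2 of 5 at 12 dpp and 2 of 5 at 16 dpp. Without litter 13, whose Prdm9 values go against both labels, the tally at 12 dpp was 1 of 4. The pairs at 16 dpp with a heterozygous mate differed by 1.0, 1.11 and -0.867 percentage points and those with a wild-type mate by -2.6 and -4.15.

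The choice of control genotype moved the 16 dpp comparison. Against heterozygous controls alone the median log2 fold change of the mRNA rows was 0.08, and against wild-type controls alone it was -0.42, where all non-mutants together gave -0.13. Neither choice gave a called member. Comparing heterozygous with wild-type libraries over all 3 ages, with age in the model, 0 of 14 members were called in limma (0.0% of 18668 rows were). However, 12 of 14 members, beside 10.6% of all rows, had an unadjusted p under 0.05, and all 14 estimates were lower in heterozygotes. The mRNA log2 fold changes ran from -0.38 (mt-Nd3) to -0.20 (mt-Nd5), and mt-Rnr1 and mt-Rnr2 were at -0.80 ± 0.18 and -0.92 ± 0.18 (SE), with adjusted p of 0.39 and 0.28. The share itself was 6.77% in wild type and 6.84% in heterozygotes at 8 dpp, 11.1% (1 library) and 8.5% at 12 dpp, and 13.97% and 10.1% at 16 dpp. No litter held both a wild-type and a heterozygous library, so genotype and litter cannot be told apart here.

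The nuclear partners of the same complexes did not rise as a group. Summed over the 79 nuclear respiratory genes, the level was 1.62% ± 0.0543 of the library (SD, n = 5) at 8 dpp and 1.63% ± 0.0481 at 16 dpp in non-mutants, and 1.59% ± 0.125 and 1.58% ± 0.0287 in mutants. The summed mitochondrial mRNA rows over this nuclear sum went from 4.18 ± 0.192 at 8 dpp to 5.71 ± 1.01 at 12 dpp and 7.18 ± 1.75 at 16 dpp in non-mutants, and from 4.47 ± 1.17 to 5.5 ± 0.776 to 6.64 ± 0.279 in mutants (SD, n = 5). The ratio did not overlap between 8 and 16 dpp in non-mutants, and in mutants the highest at 8 dpp (6.43) lay just above the lowest at 16 dpp (6.38). Of the 78 nuclear respiratory genes tested from 8 to 16 dpp, 24 were called higher and 15 lower in non-mutants, with a median log2 fold change of 0.04. In mutants 23 were higher and 15 lower, with a median of 0.00. Of all rows, 26.9% were called higher and 24.4% lower in non-mutants, and 26.8% and 20.3% in mutants.

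Individual nuclear subunits moved in both directions. In complex IV, Cox5a rose by a log2 fold change of 0.71 ± 0.08 (SE, non-mutants, 8 to 16 dpp), while Cox7b (-0.73 ± 0.09), Cox8a (-0.55 ± 0.08) and Cox7a2l (-0.48 ± 0.06) fell. Of its 12 nuclear genes, 1 was called higher and 5 lower. In complex I, 14 of 36 were higher and 3 lower, led by Ndufa1 (0.82 ± 0.09), Ndufv2 (0.78 ± 0.11) and Ndufs1 (0.57 ± 0.08), and with Ndufb11 at -0.50 ± 0.06. In complex V, 2 of 17 were higher and 6 lower, with Atp5g3 at -0.47 ± 0.06, Atp5b, the catalytic beta subunit, at -0.17 ± 0.05 and Atp5o at -0.17 ± 0.06, and Atp5f1 at 0.46 ± 0.07. In complex III, 4 of 9 were higher (Uqcrq 0.67 ± 0.10, Uqcrc2 0.34 ± 0.08, Cyc1 0.33 ± 0.09) and 1 lower (Uqcrh -0.28 ± 0.07). Complex II, which has no mitochondrial subunit, had 3 of 4 higher (Sdhb 0.36 ± 0.08, Sdhc 0.23 ± 0.08, Sdhd 0.20 ± 0.06). All of the fold changes named here had a limma adjusted p of 0.016 or less.

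**Figure D5:**
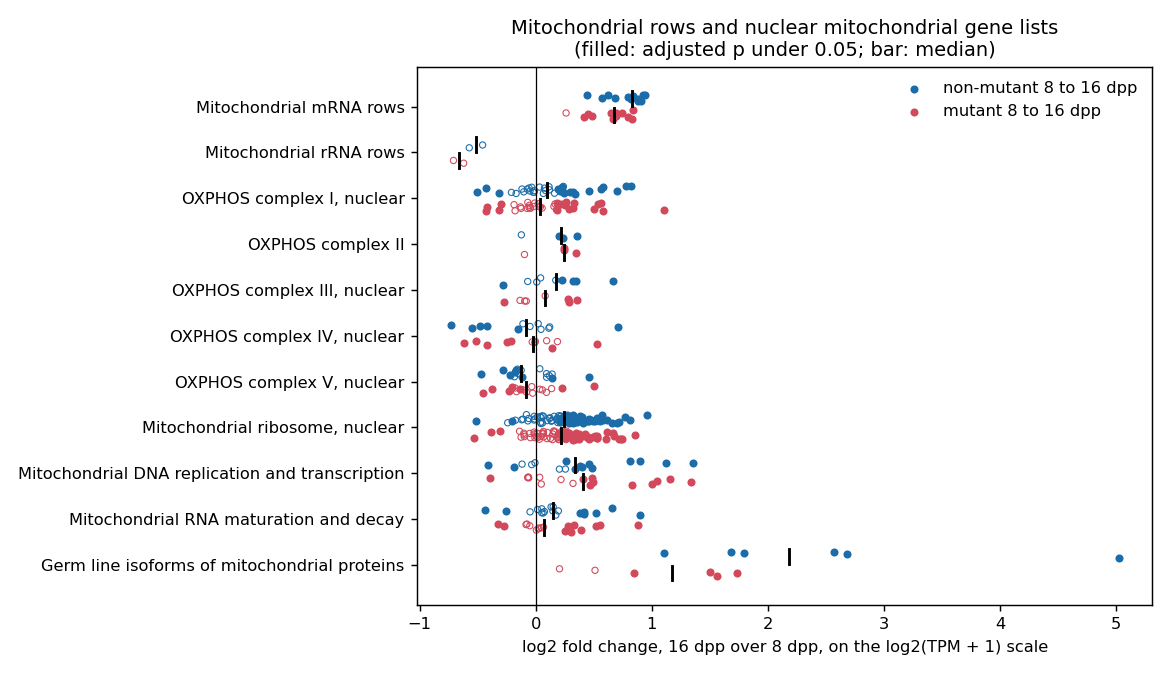
Fitted log2 fold changes from 8 to 16 dpp on the log2(TPM + 1) scale (x axis) for the mitochondrial rows and for lists of nuclear genes (rows of the plot), 1 point per gene, in non-mutants (blue) and mutants (red); filled points have a limma adjusted p under 0.05 and black bars are medians. The mitochondrial mRNA medians, 0.83 and 0.68, lie to the right of the 5 respiratory complex lists, whose medians run from -0.13 to 0.24, and the germ line isoforms differ between the classes.

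The counts for genes that copy, transcribe and process mitochondrial nucleic acid stand beside the shares of all rows called from 8 to 16 dpp, which were 26.9% higher and 24.4% lower in non-mutants and 26.8% and 20.3% in mutants. Of 17 genes of mitochondrial DNA replication and transcription, 10 were called higher and 2 lower from 8 to 16 dpp in non-mutants, with a median log2 fold change of 0.34, and 9 higher and 1 lower in mutants, with a median of 0.41. Tfb1m, a methyltransferase of the small rRNA, rose most clearly, from 9.23 ± 3.76 to 23.7 ± 1.84 TPM in non-mutants (SD, n = 5). The transcription factor Tfb2m rose by 0.48 ± 0.08 on the log2 scale, the helicase Twnk by 0.34 ± 0.08 and the primase Primpol by 1.13 ± 0.16. The 2 genes called lower were Polg2 (-0.41 ± 0.13) and Tfam (-0.19 ± 0.07), which packages mitochondrial DNA and starts its transcription. Tfam and Polg2 were named after their values were seen. The polymerase itself, Polrmt, had a log2 fold change of 0.39 ± 0.14 (limma adjusted p = 0.024), and it was likewise picked after its value was seen.

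Among 19 genes of RNA maturation and decay, 6 were higher and 2 lower in non-mutants from 8 to 16 dpp (median 0.15), and 9 higher and 2 lower in mutants (median 0.07), so the non-mutant count of higher genes was near the 26.9% of all rows. Fastkd1 rose by 0.90 ± 0.11, the tRNA CCA-adding enzyme Trnt1 by 0.52 ± 0.09 and the helicase Supv3l1 by 0.66 ± 0.12, and Hsd17b10, a subunit of the enzyme that cuts tRNA 5′ ends, fell by 0.43 on the log2 scale. Of 82 nuclear genes of the mitochondrial ribosome, 44 were higher and 2 lower in non-mutants (median 0.24) and 34 higher and 3 lower in mutants (median 0.22). The leading genes were Dap3 (0.81 ± 0.10), Mrpl51 (0.96 ± 0.12), Mrps6 (0.66 ± 0.08) and Mrpl20 (0.53 ± 0.07). Of 7 regulators of mitochondrial biogenesis, 1 was called higher in each class, the nuclear receptor Esrra (0.42 ± 0.15 in non-mutants).

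Germ line isoforms of mitochondrial proteins differed between the genotypes at 16 dpp. All 6 (Cyct, Cox6b2, Cox7b2, Cox8c, Slc25a31 and Pdha2) were called higher from 8 to 16 dpp in non-mutants and 4 in mutants, with median log2 fold changes of 2.18 and 1.18. At 16 dpp, 5 of the 6 were called lower in mutants than in non-mutants (2.75% of all rows were). Cox8c, a testis isoform of a cytochrome c oxidase subunit, had 129 ± 85.2 TPM in non-mutants and 12.1 ± 1.89 TPM in mutants at 16 dpp (SD, n = 5), a log2 fold change of -3.04 ± 0.36. Cyct, the testis cytochrome c, had 75.6 ± 30.5 and 25.7 ± 4.43 TPM, a log2 fold change of -1.45 ± 0.22. Cox6b2 and Pdha2 differed by -1.21 ± 0.21 and -1.09 ± 0.19. At 12 dpp 0 of 20021 rows were called between the classes in limma, with 225 at an unadjusted p under 0.05.

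Cell type markers moved with age and genotype beside these results. From 8 to 16 dpp, 26.9% of all rows were called higher and 24.4% lower in non-mutants, and 26.8% and 20.3% in mutants. In non-mutants, 5 of 6 germ cell markers and 6 of 6 markers each of leptotene and zygotene and of pachytene spermatocytes were called higher from 8 to 16 dpp, and 6 of 8 Sertoli markers were called lower and 2 higher. In mutants 5 germ cell markers were called higher and 1 lower, and 3 of 6 pachytene markers were called higher. Summed germ cell markers went from 436 to 766 TPM at 8 dpp to 1740 to 2201 TPM at 16 dpp in non-mutants, and from 388 to 1068 TPM to 1578 to 1896 TPM in mutants. At 16 dpp the 6 pachytene markers (Piwil1, Ldhc, Adam2, Hspa2, Ybx2, Cetn1) summed to 329 to 1567 TPM in non-mutants and 148 to 181 TPM in mutants. All 6 were called lower in mutants, beside 2.75% of all rows. The 2 wild-type libraries with the highest mitochondrial shares, 12.6% and 15.3%, had 531 and 582 TPM of these markers, less than heterozygous replicates 2 and 3 with 1246 and 1567 TPM. Over the 30 libraries the Pearson correlation of the mRNA sum with the germ cell marker sum was 0.73, and -0.21 after group means were removed, both as descriptions. Summed levels of other marker lists also differed between ages, and their counts of called markers stand beside the same shares of all rows. Summed macrophage and leukocyte markers had means of 28.9 TPM at 8 dpp and 63.5 TPM at 16 dpp in non-mutants and of 34.7 and 97.0 TPM in mutants, with 3 of 5 markers called higher in each class. Endothelial markers had means of 73.9 and 42.9 TPM in non-mutants and 80.5 and 51.8 TPM in mutants, with 2 of 4 called lower in each class. Genes of dissociation stress such as Fos, Jun and Egr1 had means of 3043 and 1923 TPM in non-mutants and 2828 and 2345 TPM in mutants, with 4 and 3 of 8 called lower. Their correlations with the mRNA sum were 0.61, -0.72 and -0.62 over the 30 libraries and -0.04, -0.17 and -0.30 after group means were removed. More cells of a type and more RNA per cell cannot be told apart in these bulk libraries, and the part of cell content in the age differences was not tested.

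Of 9625 nuclear genes screened (mean TPM not below 10), the 5 whose log2 levels followed the mitochondrial mRNA sum most closely across the 30 libraries were Tsx (Pearson r = 0.87), D030056L22Rik (0.86), Hsd3b6 (0.85), Lactb (0.85) and Gm9112 (0.85). The 5 that ran most opposite were Ppp1r9b (-0.93), Iqsec1 (-0.92), Zfp651 (-0.91), Ssrp1 (-0.91) and Kank2 (-0.91). After group means were removed, Iqsec1 was at -0.81 and Tsx at 0.53. Since every value is a share of one total that the members themselves fill by up to 15.3%, opposite movement of other rows is partly built into the unit.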

How the data were processed

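The authors deposited 1 table of TPM values per gene and library, and the submitters' processing notes name Bowtie 1.0.0, RSEM 1.2.8 and the builds mm10 and GRCm38. Read counts and the strand setting are not given in the sources used here. Members, gene lists and tests were chosen with earlier results of these data known. Ensembl IDs were matched to GENCODE M21 (37709 of 38906). Named genes were all members with values, the 4 nuclear copies with the highest mean, up to 4 called genes with the smallest adjusted p per list and contrast, and the 5 nuclear genes most and least correlated with the mRNA sum. Log2(TPM + 1), with a pseudocount of 1, was fitted over 6 groups with limma 3.58.1 (R 4.3.3, trended variance) on 20021 rows above 1 TPM in at least 5 libraries, with Benjamini-Hochberg adjustment over all rows and a threshold of 0.05. Fold changes on this scale understate changes of low rows. The contrast from 8 to 16 dpp was added after the values were seen. Heterozygous and wild-type libraries were compared on 18668 rows with age as a term. Nuclear copies were searched with BLAST+ 2.17.0. Pairs were formed from consecutive numbers in the sample labels. Each held 1 mutant and 1 non-mutant library of the same litter by the table header. The 15 pairs deviated together from their group means (correlations of 0.07 to 0.39, median 0.24, 13 over 0.1), and other litters did not (median -0.08). The pairs share both a litter and adjacent numbers. The model was tested on simulated data. Alternatives were another pseudocount, no filter, median-ratio scaling, a total without the members, litter and replicate number as blocks, either control genotype alone, each age alone, and each library left out.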

Additional observations from a re-analysis of the deposited data

Results flagged for a closer look

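In 90 groups of 5 libraries (14 members and the summed share in 6 groups), 5 values lay far from the other 4 of their group by Dixon's test, and chance flags about 1 in 20. mt-Nd2 was 3627 TPM in mutant 12 dpp replicate 3, the highest of its group. mt-Atp8 was 2996 TPM in heterozygous 12 dpp replicate 3, the lowest of the non-mutants. mt-Nd4 (4423 TPM) and mt-Cytb (6953 TPM) were highest in mutant 8 dpp replicate 4, the library that also had the highest mitochondrial share at 8 dpp. mt-Cytb was 8809 TPM in mutant 16 dpp replicate 3, the highest of that group.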

How the results depend on the processing

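The 8 to 16 dpp contrast was chosen after seeing the data. Its counts of members called in either direction ran from 12 to 13 in non-mutants and from 11 to 12 in mutants. There were 36 alternatives in each class, of which those that leave out libraries of other groups bear only on the shared variance. As 12 members with values are mRNA rows, a count of 13 includes an rRNA row, and the rRNA estimates were negative in the main fit. The counts of 0 for genotype and for the differences between steps were 0 in every alternative run. With litter as a random replicate block, 9 and 7 members were called from 8 to 12 dpp and from 12 to 16 dpp in non-mutants and 6 and 1 in mutants, so pairing by litter changed no count by more than 1.5 times. Median-ratio scaling gave 0 calls from 8 to 12 dpp in non-mutants and 0 and 0 in the mutant steps. Without a filter on low values the calls were 0 from 12 to 16 dpp in non-mutants and 1 and 0 in the mutant steps; more rows were then tested (46579). Without litter 13, chosen after seeing earlier results, the 12 to 16 dpp calls were 1 in non-mutants and 0 in mutants. With each library left out, the counts ran from 5 to 11 (8 to 12 dpp) and 0 to 10 (12 to 16 dpp) in non-mutants and 1 to 11 and 0 to 2 in mutants. The single mutant call, mt-Co1, was lost in 18 of 30 such fits. Against wild-type controls alone, the median mRNA log2 fold change of mutants was -0.40 at 12 dpp, where there is 1 such library, assumed to vary like the others, and -0.42 at 16 dpp. The share was also taken with Gm10222 and the 4 NONCODE rows of constant ratio added, without NONMMUG000269, a choice made after seeing the data. It was then 8.76%, 11.7% and 15.2% in non-mutants and 9.08%, 11.4% and 13.8% in mutants at 8, 12 and 16 dpp. Depth limits low rows in a way TPM does not show.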
